A study of Danio rerio with 20 samples.

Results

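Brains of 3-year-old male zebrafish (Danio rerio) that had not been exercised were compared with brains of unexercised 1-year-old males. All 10 libraries whose perturbation label is "none" were used, 5 of each age, out of 20 libraries in the series. The other 10 libraries came from fish of the same ages, 5 at 3 years and 5 at 1 year, that had been placed in a swim tunnel, where a water current makes the fish swim, and they serve below as a second comparison of the ages. Every library carries the same labels for sex (male), strain (AB JxTu) and tissue (brain, total RNA), and no transgene or drug is given. The labels do not say whether a library is 1 brain or a pool, at what time of day the fish were sampled, or whether the ages came from different hatches. The p-values therefore measure the spread between libraries, estimated within the groups over all 20 libraries of the series. Age cannot be told apart from hatch or time of sampling.

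Zebrafish keep radial glia that divide and make neurons throughout adult life, and their brain is used as a vertebrate model of ageing. Changes commonly studied in ageing brain are immune activation of microglia, loss of mitochondrial function, a weaker chaperone system that folds proteins, and altered daily rhythms. Arginine, ornithine and proline are linked through mitochondrial enzymes that lead to glutamate, and sterol synthesis supplies the cholesterol that neurons and myelin need.

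Of 21148 genes tested, 124 passed the threshold between 3-year and 1-year unexercised brains (0.586%), 47 of them higher and 77 lower at 3 years (0.222% and 0.364%). The test was edgeR's quasi-likelihood F-test with a Benjamini-Hochberg adjusted p below 0.05, which is what "called" means throughout. Without adjustment, 2983 genes had p below 0.05 (14.1%), 1540 higher and 1443 lower. Effects were moderate: the median absolute log2 fold change (3 years over 1 year) of the called genes was 0.73, and 46 changed by 1 or more on the log2 scale, 23 in each direction. Of all genes tested, 49.5% had a positive log2 fold change. These shares over all genes are the background of every list count below. In 108 of the 124 genes (87.1%) the 5 libraries of one age did not overlap those of the other, against 550 of all genes tested (2.6%; 1.24% with 3-year libraries higher and 1.36% with them lower). When each of the 10 libraries was left out in turn, between 76 and 260 genes were called. The lowest counts, 76 and 79, came without replicate 4 at 1 year and at 3 years, the highest without 3-year replicate 1, and 62 of the 124 genes were called in all 10 of these fits.

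Library totals lay between 25165794 and 30340714 counts at 3 years and between 26463567 and 31906746 counts at 1 year. Neuronal markers were abundant at both ages: SNAP25 (ENSDARG00000020609) ranged from 3280 to 4170 CPM (a gene's counts scaled to a common library size) in 3-year libraries and from 3470 to 4630 CPM in 1-year libraries. Several libraries stood apart. The mean log2 CPM of 37 epidermis genes was 4.57 in 3-year replicate 3 and 5.36 in 1-year replicate 1, against 2.06 to 2.58 in the other 3-year libraries and 2.26 to 2.92 in the other 1-year libraries. That of 43 muscle genes was 4.60 in 1-year replicate 1, against 0.31 to 2.82 in 3-year libraries and 0.17 to 1.88 in the other 1-year libraries. On the first principal component (24.9% of the variance) 3-year replicate 1 lay at -52.7, beside 1-year replicates 3, 4 and 5 at -43.7, -57.3 and -50.2. The other 3-year libraries lay at 11.3 to 50, with 1-year replicate 1 beyond them at 69.9 and 1-year replicate 2 at -2.3. Without 1-year replicate 1 and 3-year replicate 3, 74 genes were called, and without 1-year replicate 1 and 3-year replicate 1, 560 were called. The part of other tissue in the gene results was not tested. In bulk tissue, fewer cells of a type and less RNA per cell cannot be told apart.

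Clock genes made up 26 of the 124 calls and 12 of the 20 smallest p-values, and 98 genes, 38 higher and 60 lower, lay outside the clock lists. Of 36 genes on the clock list written at the start, 6 were called higher and 12 lower, against 0.222% and 0.364% of all genes tested. A further list of 13 clock genes under other symbols, with 3 higher and 5 lower calls, was compiled after the calls had been seen. The count of 26 is therefore partly drawn from the calls themselves. The clock genes with the smallest p had opposite directions. The nuclear receptor gene rorcb was higher, at 90.2 ± 25.9 CPM at 3 years and 16.3 ± 1.06 CPM at 1 year (SD, n = 5 each), and the period gene PER1 (ENSDARG00000012499) was lower, at 45.4 ± 9.38 CPM at 3 years and 141 ± 20.3 CPM at 1 year. This gene and PER1 (ENSDARG00000056885) were also the 2 calls, both lower, among 50 immediate early genes. Of the 50, 42 had a negative log2 fold change, 14 were lower at unadjusted p below 0.05, and DESeq2 called 4, all lower. The list's median was -0.44, and -0.11 in exercised fish. By comparison, 49.5% of all genes tested were positive, and 1443 of 21148 were lower at unadjusted p below 0.05.

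The enzyme genes ARG2, OAT, prodha and ALDH4A1, which act in the breakdown of arginine, ornithine and proline, were lower in 3-year brains. They were the 4 called of 14 genes on a list of this route that was compiled after the calls had been seen, and 5 of the 14 had a positive log2 fold change. Over all genes tested, 0.364% were called lower and 49.5% were positive. The median log2 fold change of the whole list was -0.07, against 0.00 over all genes tested. ARG2 (ENSDARG00000039269), the mitochondrial arginase that turns arginine into ornithine and urea, had 87.3, 51.1, 80.8, 72 and 112 CPM in the 3-year libraries, against 147, 147, 167, 197 and 165 CPM in the 1-year libraries. Every 3-year library was below every 1-year library, and the log2 fold change was -1.03 (SE 0.15, edgeR adjusted p = 0.00168). The ARG2 and prodha calls were lost when only the 10 libraries compared were fitted (adjusted p = 0.0688 for ARG2). OAT (ENSDARG00000078425), the aminotransferase that passes ornithine on towards glutamate and proline, had 28.6, 19.6, 18.3, 20.4 and 23.8 CPM at 3 years, against 39.3, 37.4, 32.5, 37.2 and 38.5 CPM at 1 year. These groups did not overlap either, with a log2 fold change of -0.74 (SE 0.12, edgeR adjusted p = 0.00385).

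Both enzymes that oxidise proline to glutamate were lower too. The proline dehydrogenase gene prodha (ENSDARG00000086746) had 59.4, 57.5, 57.2, 55.7 and 61.6 CPM at 3 years, against 81.5, 81.7, 72, 83.9 and 106 CPM at 1 year (log2 fold change -0.55, SE 0.11, edgeR adjusted p = 0.026). The 3-year libraries lay within a few CPM of each other and below all 1-year libraries. This call depended on single libraries: it was lost without 1-year replicate 4 or 5 or without 3-year replicate 2, 3 or 4, with adjusted p up to 0.0818. ALDH4A1 (ENSDARG00000038207), the dehydrogenase of the next step, had 21.3, 17.9, 18.7, 18.6 and 16.5 CPM at 3 years, against 24.2, 30.5, 26.5, 31.5 and 26.8 CPM at 1 year (log2 fold change -0.58, SE 0.09, edgeR adjusted p = 0.00334). Groups again did not overlap.

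Enzymes that run the other way, towards proline, were not called. ALDH18A1, which makes the proline precursor from glutamate, averaged 44.8 ± 3.21 CPM at 3 years and 41.9 ± 3.4 CPM at 1 year (SD, n = 5 each), and the 95% confidence interval of its log2 fold change ran from -0.04 to 0.23. The reductase genes pycr1a and pycr1b had log2 fold changes of 0.29 and 0.11 (edgeR adjusted p = 0.518 and 0.599). The glutamate dehydrogenase gene glud1b, which is not an enzyme of proline synthesis, was not called either (log2 fold change -0.06, edgeR adjusted p = 0.808). Polyamines are also made from ornithine. Of 17 polyamine genes, compiled after the calls had been seen, AMD1, which supplies the aminopropyl donor, was the only one called. It averaged 262 ± 29.3 CPM at 3 years and 366 ± 36 CPM at 1 year (SD, n = 5 each; log2 fold change -0.48, edgeR adjusted p = 0.016). The call was lost without 1-year replicate 4 or 3-year replicate 3 or 4, with adjusted p up to 0.0605. Of the 17 polyamine genes, 13 had a negative and 4 a positive log2 fold change (median -0.17), and DESeq2 called 2, both lower. By comparison, 0.364% of all genes tested were called lower and 49.5% were positive.

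**Figure D1:**
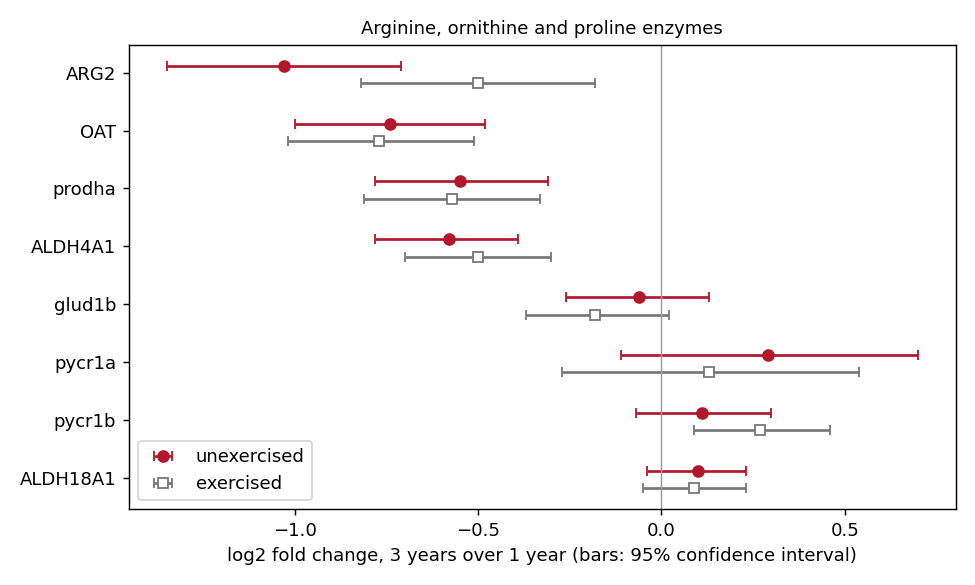
Log2 fold change of 3-year over 1-year brains for 8 enzymes of arginine, ornithine, proline and glutamate metabolism, with 95% confidence intervals from the edgeR standard errors (n = 5 libraries in each group). Filled red circles are unexercised fish and open grey squares exercised fish. The intervals of ARG2, OAT, prodha and ALDH4A1 lie below 0 in both comparisons, and those of pycr1a, ALDH18A1 and glud1b include 0 in both. That of pycr1b includes 0 in unexercised fish (-0.07 to 0.30) and lies above 0 in exercised fish (0.09 to 0.46), where it was not called (edgeR adjusted p = 0.0555).

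Of 39 genes on a list of mitochondrial import and outer membrane proteins, compiled after the calls had been seen, TOMM40 and VDAC3 were called, both lower. Over all genes tested, 0.364% were called lower. TOMM40 (ENSDARG00000092112), the channel through which proteins enter mitochondria, had 46.3, 45.3, 45.7, 43.9 and 45.9 CPM in 3-year libraries, against 59.3, 55.4, 57.7, 60.3 and 64.9 CPM in 1-year libraries. All 3-year values were close together and below all 1-year values (log2 fold change -0.39, SE 0.06, edgeR adjusted p = 0.00334). VDAC3 (ENSDARG00000003695), an anion channel of the outer membrane, had 253, 188, 198, 223 and 211 CPM at 3 years, against 299, 270, 281, 290 and 288 CPM at 1 year, also without overlap (log2 fold change -0.41, SE 0.07, edgeR adjusted p = 0.00824). The VDAC3 call was lost when only the 10 libraries compared were fitted (adjusted p = 0.108). Of the 39 genes, 32 had a negative and 7 a positive log2 fold change (median -0.13), and 49.5% of all genes tested were positive.

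Among genes of the mitochondrial inner membrane and matrix, which were picked from the calls and belong to no common list, 4 lowered genes are given. They were chosen as lowered genes, so they do not show a common direction. The carnitine acetyltransferase gene cratb was called higher (log2 fold change 0.44, edgeR adjusted p = 0.047). The nucleotide carrier SLC25A33 averaged 30 ± 5.88 CPM at 3 years and 48.8 ± 8.03 CPM at 1 year (SD, n = 5 each; edgeR adjusted p = 0.0106). The protease gene afg3l1 averaged 25.5 ± 2.09 CPM at 3 years and 36.8 ± 2.81 CPM at 1 year (edgeR adjusted p = 0.00226). The hypoxia-inducible protein gene higd1a averaged 63.8 ± 7.04 CPM at 3 years and 99 ± 18.7 CPM at 1 year (edgeR adjusted p = 0.0172), a call lost without 3-year replicate 2, 3 or 4 (adjusted p up to 0.059). The mitochondrial folate enzyme gene mthfd2 averaged 20 ± 2.71 CPM at 3 years and 29.9 ± 2.68 CPM at 1 year (edgeR adjusted p = 0.00305). It was the 1 called of 28 folate genes (median -0.04), a list compiled after the calls had been seen. By comparison, 0.364% of all genes tested were called lower. With only the 10 libraries compared, SLC25A33 and mthfd2 were not called (adjusted p = 0.128 and 0.0575).

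Of 26 haem genes on a list compiled after the calls had been seen, HCCS, SLC25A28 and ABCB6 were called, all lower, against 0.364% of all genes tested. The list as a whole had 12 positive and 14 negative genes, a median of -0.02, and 3 higher and 4 lower genes at unadjusted p below 0.05. HCCS (ENSDARG00000028131), which attaches haem to cytochrome c, had 12.7, 11.1, 12.7, 12.8 and 9.82 CPM at 3 years, against 20.6, 18.2, 24.5, 24.9 and 24.2 CPM at 1 year (log2 fold change -0.93, SE 0.12, edgeR adjusted p = 0.000326). The groups were far from overlapping. A second identifier with the symbol HCCS (ENSDARG00000099358) carried more reads and was not called, with means of 43.6 CPM at 3 years and 46.2 CPM at 1 year, and the sources used here do not say how the authors' counting divided reads between similar copies. SLC25A28, an iron importer, averaged 63.9 ± 1.55 CPM at 3 years and 75.2 ± 4.44 CPM at 1 year (SD, n = 5 each; edgeR adjusted p = 0.0156). The porphyrin transporter ABCB6 (ENSDARG00000063297) averaged 16.7 ± 4.24 CPM at 3 years and 25.1 ± 3.08 CPM at 1 year (edgeR adjusted p = 0.0435). Leaving out single libraries ended the SLC25A28 call (without replicate 4 of either age, adjusted p up to 0.0558) and the ABCB6 call (without any 1 library other than 1-year replicate 1 and 3-year replicate 5, up to 0.12).

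The respiratory chain itself had no called gene among 67. Of these, 63 had a negative log2 fold change, with a median of -0.13 and a range from -0.53 to 0.03, and 17 were lower at unadjusted p below 0.05. DESeq2 called 3 of the 67, all lower. Over all genes tested, 49.5% were positive, and 1443 of 21148 were lower at unadjusted p below 0.05. Leaving out 1 library at a time kept the median between -0.17 and -0.10.

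Sterol synthesis genes had mostly negative log2 fold changes, few of them called. FDFT1 (ENSDARG00000101062), squalene synthase, had 10.7, 9.98, 7.87, 10.5 and 7.91 CPM at 3 years, against 11.5, 18.4, 14.1, 16.7 and 16.3 CPM at 1 year (log2 fold change -0.72, SE 0.15, edgeR adjusted p = 0.0256). All 3-year libraries were below all 1-year libraries. Of 30 genes on the list, 2 were called, 11 had an unadjusted p below 0.05 and were lower, and 23 were negative. Over all genes tested, 0.364% were called lower, 1443 of 21148 were lower at unadjusted p below 0.05, and 49.5% were positive. The list's median was -0.32, between -0.39 and -0.23 as single libraries were left out. The FDFT1 call depended on single libraries: it was lost without 1-year replicate 2, 4 or 5 or 3-year replicate 2, 3 or 5 (adjusted p up to 0.0791).

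The called heat shock genes had both directions, and most genes on their list had a negative log2 fold change. HSF2 (ENSDARG00000053097), a heat shock transcription factor, had 27, 33.3, 31, 25.1 and 20.6 CPM at 3 years, against 41.1, 44.8, 53.5, 52.8 and 37.4 CPM at 1 year (log2 fold change -0.74, SE 0.13, edgeR adjusted p = 0.00562), and its call was lost when only the 10 libraries compared were fitted (adjusted p = 0.102). CRYAB (ENSDARG00000101380), the small heat shock protein alpha-B-crystallin, went the other way, with 18.2, 25.8, 21, 22.6 and 21.4 CPM at 3 years, against 8.68, 7.03, 7.47, 7.91 and 7.42 CPM at 1 year (log2 fold change 1.50, SE 0.27, edgeR adjusted p = 0.00969). Neither gene's groups overlapped. The Hsp110 family gene HSPA4 (ENSDARG00000004754) was lower, at 66.7 ± 5.01 CPM at 3 years and 92.2 ± 5.31 CPM at 1 year (SD, n = 5 each; edgeR adjusted p = 0.0155). Its relative HSPA4L averaged 159 ± 21.5 CPM at 3 years and 221 ± 23.3 CPM at 1 year (edgeR adjusted p = 0.0256). Both were lost in some fits with a library left out: HSPA4 without 1-year replicate 4 or 3-year replicate 3 (up to 0.0512), HSPA4L without 1-year replicate 3, 4 or 5 or 3-year replicate 2, 3 or 4 (up to 0.0815). HSF2, HSPA4 and CRYAB were the 3 called among 48 genes of the heat shock and unfolded protein list, whose median was -0.10. Of the 48 genes, 35 had a negative and 13 a positive log2 fold change. At unadjusted p below 0.05, 9 were lower and 2 higher, and DESeq2 called 6 lower and 1 higher. Over all genes tested, 0.222% were called higher and 0.364% lower, and 49.5% were positive. The unadjusted counts over all 21148 genes were 1540 higher and 1443 lower. The inducible chaperone hsp90aa1.1, looked at after its values were seen, was not called (6.36 ± 0.791 CPM at 3 years and 17.2 ± 8.28 CPM at 1 year, edgeR adjusted p = 0.0771), and its 1-year replicate 1 held 31.6 CPM.

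Of 17 genes on a list of photolyases and ultraviolet repair, again compiled after the calls had been seen, 4 were called, all lower, and 6 were positive. DDB2 (ENSDARG00000041140), which recognises such damage, had 8.39, 12.6, 10.8, 10.7 and 10.7 CPM at 3 years, against 23.9, 20.9, 19.7, 23 and 19.4 CPM at 1 year (log2 fold change -1.01, SE 0.11, edgeR adjusted p = 6.45e-05). Levels at 3 years were about 0.498 times those at 1 year, with a wide gap between the groups. The 3 other calls of the list belong to the photolyase and cryptochrome family, enzymes and relatives that use light, and cry5 and cry-dash among them are also on the clock lists. The log2 fold change was -1.19 for cry5 (4.6 ± 0.738 CPM at 3 years and 10.5 ± 0.846 CPM at 1 year, edgeR adjusted p = 0.000112). It was -1.10 for cry-dash (8.98 ± 2 CPM at 3 years and 19.3 ± 1.61 CPM at 1 year, edgeR adjusted p = 8.24e-05). For the pyrimidine dimer photolyase gene cpdp it was -0.58 (21.5 ± 4.17 CPM at 3 years and 32.2 ± 3.02 CPM at 1 year, edgeR adjusted p = 0.00602), a call lost when only the 10 libraries compared were fitted (adjusted p = 0.127). The median of this later list was -0.10, and 0.364% of all genes tested were called lower. DDB2 was also the 1 call among 49 genes of a DNA damage, p53 and senescence list written at the start. That list had 24 positive and 25 negative genes and a median of -0.02.

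Other lowered genes had varied roles. The synaptotagmin gene syt13 (ENSDARG00000012306), of a family of membrane-trafficking proteins, had 98.3, 84, 93.7, 88.6 and 98.4 CPM at 3 years, against 143, 154, 132, 165 and 187 CPM at 1 year (log2 fold change -0.75, SE 0.09, edgeR adjusted p = 0.00011). All 3-year libraries were below all 1-year libraries, and none of 57 synaptic vesicle and release genes on the list was called (7 at unadjusted p below 0.05, all lower, 0 by DESeq2). Of the 57 genes, 46 had a negative and 11 a positive log2 fold change, with a median of -0.13. By comparison, 49.5% of all genes tested were positive, and 1443 of 21148 were lower at unadjusted p below 0.05. The sialyltransferase gene st8sia6 averaged 38.3 ± 4.67 CPM at 3 years and 64.7 ± 8.42 CPM at 1 year (SD, n = 5 each; edgeR adjusted p = 0.00226). The translation elongation factor EEF2 averaged 551 ± 42.1 CPM at 3 years and 720 ± 71.5 CPM at 1 year (edgeR adjusted p = 0.0256, up to 0.0817 without 1-year replicate 3, 4 or 5 or 3-year replicate 2, 3 or 4, where the call was lost). None of 75 cytosolic ribosomal protein genes was called, nor did any have an unadjusted p below 0.05 or a DESeq2 call, and their median was 0.04. NDFIP2, an adaptor of Nedd4-family ubiquitin ligases, averaged 168 ± 17.7 CPM at 3 years and 220 ± 14 CPM at 1 year (edgeR adjusted p = 0.0103, and 0.119 with only the 10 libraries compared). RCAN2, a regulator of the phosphatase calcineurin, averaged 28.6 ± 5.95 CPM at 3 years and 43.5 ± 3.39 CPM at 1 year (edgeR adjusted p = 0.0255), a call lost without any 1 of 1-year replicates 2 to 5 and 3-year replicates 2 to 4 (up to 0.0836).

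A few transcripts were close to absent at one age. The uncharacterised gene si:ch211-195b13.9 (ENSDARG00000097873) had 0, 0, 0, 1 and 0 counts in 3-year libraries, against 31, 19, 16, 36 and 32 counts in 1-year libraries. Its summed counts, 1 at 3 years and 134 at 1 year, give a ratio of 0.00764 after scaling for depth (95% counting interval 0.000192 to 0.0433, which covers counting error only). In exercised fish the sums were 0 at 3 years and 130 at 1 year, the same split in separate libraries. The cyclic nucleotide-gated channel gene cngk had summed counts of 24 at 3 years and 196 at 1 year, and 48 and 314 at 3 years and 1 year in exercised fish. Its call (edgeR adjusted p = 0.044) was lost without any 1 library other than 1-year replicate 3 and 3-year replicate 1 (up to 0.117). The identifier ENSDARG00000101930, without a symbol, had 22 counts at 3 years and 213 at 1 year, but 1-year replicate 3 held only 0.0638 CPM, below all 3-year libraries (0.0664 to 0.454 CPM). Its call (edgeR adjusted p = 0.0481) was lost in every fit with 1 library dropped except those without replicate 3 of either age (up to 0.135). In the other direction ENSDARG00000102467, also without a symbol, had 443 counts at 3 years and 6 at 1 year, while in exercised fish the sums were 437 at 3 years and 105 at 1 year. Of its 3-year unexercised libraries, replicate 2 held 9.56 CPM and the others 0.229 to 2.62 CPM. Abundant and large among the uncharacterised lowered genes was si:ch211-132b12.7 (ENSDARG00000068374), with 15.3, 19.5, 13.5, 17.5 and 10.5 CPM at 3 years, against 66.6, 78.6, 54.8, 89 and 68.5 CPM at 1 year (log2 fold change -2.23, SE 0.24, edgeR adjusted p = 6.85e-05).

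Among genes higher in 3-year brains, stm (ENSDARG00000035694) was one of the most abundant with a large change. It encodes starmaker, a matrix protein of the otoliths, the ear stones of fish, and had 220, 215, 202, 173 and 178 CPM at 3 years, against 42.6, 77.1, 36.9, 82.3 and 41.8 CPM at 1 year. All 3-year libraries were above all 1-year libraries (log2 fold change 1.81, SE 0.38, edgeR adjusted p = 0.033), and the call was lost without 1-year replicate 1, 3 or 5 or 3-year replicate 2, 3 or 4 (adjusted p up to 0.104). No other of the 20 inner ear and otolith genes was called, and 15 of the 20 were positive, against 49.5% of all genes tested. The list's median of 0.23 rested on 1 library, since it was -0.03 without 3-year replicate 1. In exercised fish the median was -0.32. MXD3 (ENSDARG00000098350), a repressor of the MAX network that opposes MYC, had 10.8, 11.1, 13.4, 12.1 and 14.9 CPM at 3 years, against 5.65, 6.16, 7.37, 6.67 and 6.04 CPM at 1 year (log2 fold change 0.97, SE 0.13, edgeR adjusted p = 0.000486). Here too the groups did not overlap.

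Other genes higher at 3 years, picked from the calls after their values were seen, had varied roles. IMPDH1 (ENSDARG00000029524), the rate-limiting enzyme of guanine nucleotide synthesis, averaged 61.3 ± 6.72 CPM at 3 years and 40 ± 2.4 CPM at 1 year (SD, n = 5 each; edgeR adjusted p = 0.00447). WDR91, a regulator of endosome maturation, averaged 18.7 ± 3.3 CPM at 3 years and 9.85 ± 0.58 CPM at 1 year (edgeR adjusted p = 0.00506). The RNase gene rnaset2, whose product works in lysosomes, averaged 17.3 ± 1.87 CPM at 3 years and 10.3 ± 1.29 CPM at 1 year (edgeR adjusted p = 0.00435). Of 60 lysosome and autophagy list genes, which do not include these, none was called in unexercised fish (14 higher and 2 lower at unadjusted p below 0.05, 2 lower by DESeq2). OGA, which removes O-GlcNAc sugars from proteins, averaged 176 ± 22.8 CPM at 3 years and 121 ± 13.4 CPM at 1 year (edgeR adjusted p = 0.0234). The OGA call was lost without 1-year replicate 3 or 4 or 3-year replicate 2 or 4 (adjusted p up to 0.0758). The cap-binding family gene eif4e2rs1, named after its values were seen, averaged 48.9 ± 9.79 CPM at 3 years and 24.1 ± 3.73 CPM at 1 year (edgeR adjusted p = 0.0017). EFEMP2 (ENSDARG00000020811), fibulin-4 of the elastic matrix, had 182 CPM in 3-year replicate 1 and 346 to 367 CPM in the other 3-year libraries, against 143 to 222 CPM at 1 year. Its groups overlapped through that 1 library (log2 fold change 0.83, SE 0.15, edgeR adjusted p = 0.0108, and 0.192 with only the 10 libraries compared). None of 69 collagen and matrix genes was called (2 higher and 5 lower at unadjusted p below 0.05, 1 lower by DESeq2). Over all genes tested, 14.1% had an unadjusted p below 0.05.

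**Figure D2:**
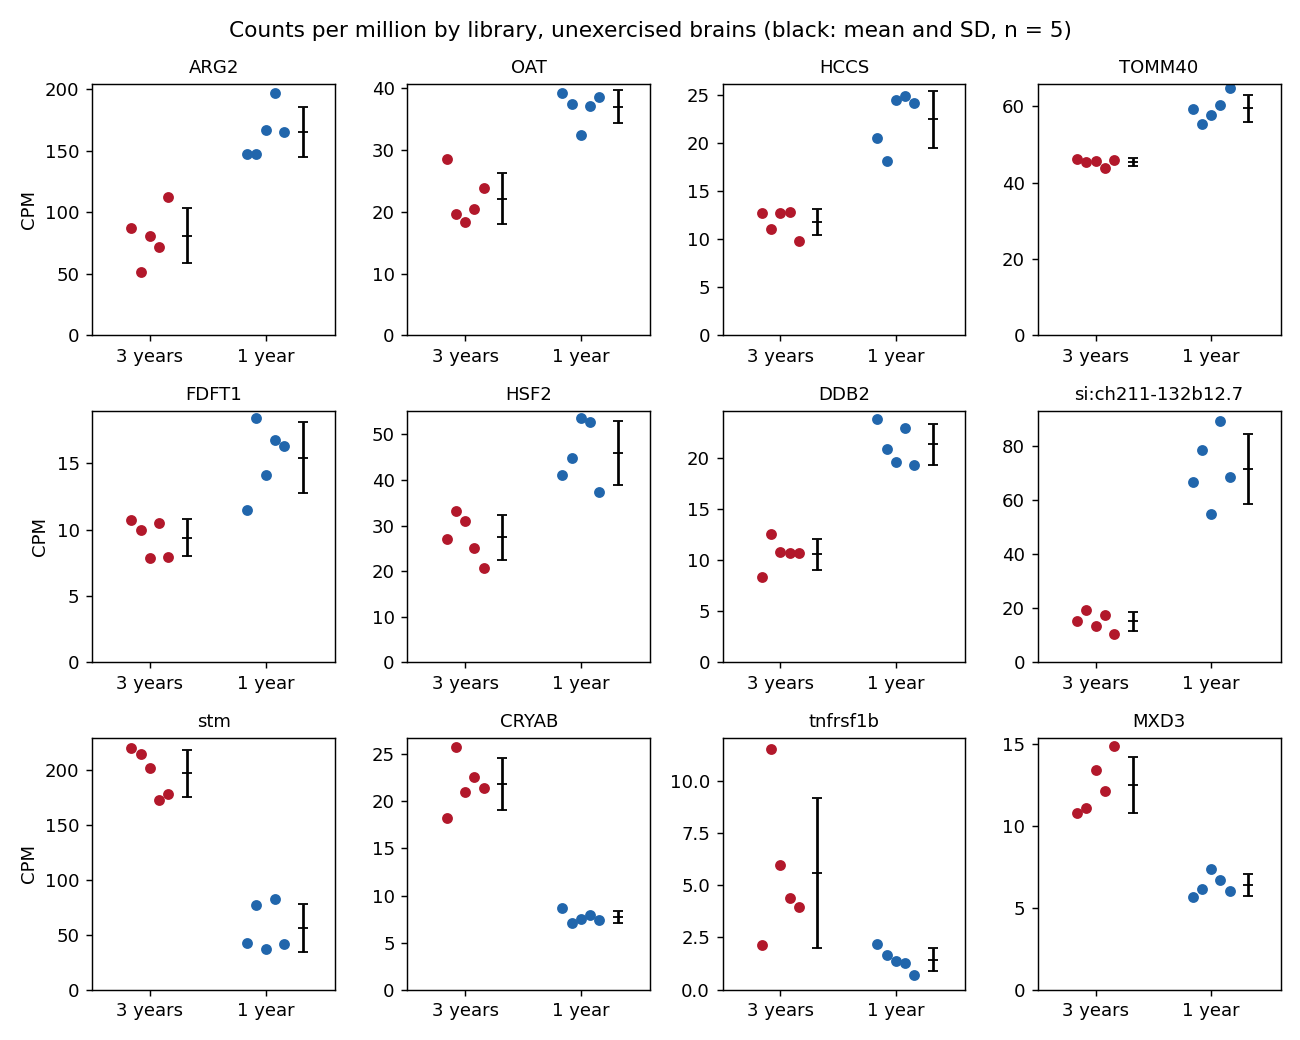
CPM of 12 genes in each unexercised library, 3 years in red on the left and 1 year in blue on the right of each panel, with the mean and SD in black (n = 5 each; linear axes). In ARG2, OAT, HCCS, TOMM40, FDFT1, HSF2, DDB2 and si:ch211-132b12.7 all 3-year points lie below all 1-year points. In stm, CRYAB and MXD3 they lie above, and in tnfrsf1b 3-year replicate 1 (2.12 CPM) falls below 1-year replicate 1 (2.18 CPM).

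On the immune lists the genes that passed the test were tnfrsf1b, IRAK3 and PELI3. A list of TNF and interleukin-1 receptor signalling had 2 higher and 1 lower call among 27 genes (median 0.24), against 0.222% and 0.364% of all genes tested. It was compiled after the calls had been seen, so it is no separate evidence for these genes. On the NF-kB and innate sensing list, written at the start, IRAK3 was the 1 call among 39 genes (median 0.41). The TNF receptor gene tnfrsf1b (ENSDARG00000070165) had 2.12, 11.5, 5.94, 4.38 and 3.94 CPM at 3 years, against 2.18, 1.66, 1.37, 1.28 and 0.708 CPM at 1 year (log2 fold change 1.95, SE 0.39, edgeR adjusted p = 0.0241). IRAK3 (ENSDARG00000053131), an inhibitor of Toll-like and interleukin-1 receptor signalling, had 3.65, 15, 6.92, 6.14 and 7.41 CPM at 3 years, against 4.09, 1.84, 2.9, 2.42 and 2.97 CPM at 1 year (log2 fold change 1.46, SE 0.33). Its edgeR adjusted p of 0.049956 lay just under the threshold. In both genes 3-year replicate 2 was highest and 3-year replicate 1 fell below 1-year replicate 1. PELI3, a ubiquitin ligase of the same pathways, was lower, at 56.6 ± 3.21 CPM at 3 years and 81.9 ± 12.5 CPM at 1 year (SD, n = 5 each; edgeR adjusted p = 0.0153). Each of the 3 calls was lost without certain libraries: tnfrsf1b without 1-year replicate 3, 4 or 5 or 3-year replicate 2 or 3 (adjusted p up to 0.0764), IRAK3 in every such fit except those without replicate 1 of either age (up to 0.135), and PELI3 without 3-year replicate 3 or 4 (up to 0.0503).

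Other immune lists were shifted upwards without a called gene. The interferon list had a median log2 fold change of 0.68 with 32 of 33 genes positive, 12 of them at unadjusted p below 0.05 and 2 called by DESeq2. Over all genes tested, 49.5% were positive, and 1540 of 21148 were higher at unadjusted p below 0.05. Medians were 0.70 for MHC class I and peptide loading (28 genes, 11 at unadjusted p below 0.05 and higher, 1 by DESeq2), 0.78 for MHC class II (9 genes, 5 and 0), 0.53 for microglia and macrophages (30 genes, 11 and 6), and 0.55 for lymphocytes (30 genes, 8 and 1). One library had a large part in these values. The list scores of 3-year replicate 2, which are means of log2 CPM, were the highest of the 10 for all 5 lists, and without that library the medians were 0.36, 0.21, 0.39, 0.32 and 0.24 in the order given. Without 1-year replicate 1, the highest 1-year library on all 5 lists, they were 0.93, 0.96, 0.96, 0.78 and 0.99.

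Single immune genes showed how uneven the 3-year libraries were. The invariant chain gene cd74a, which escorts MHC class II molecules, had 608, 1630, 804, 637 and 479 CPM at 3 years, against 679, 284, 566, 317 and 572 CPM at 1 year (log2 fold change 0.78, SE 0.33, edgeR adjusted p = 0.293). The transcription factor IRF8, needed for microglia in zebrafish and named after its values were seen, had 18.4, 51.2, 21, 18.3 and 16.2 CPM at 3 years, against 16.1, 6.88, 9.64, 7.33 and 9.21 CPM at 1 year (log2 fold change 1.35, edgeR adjusted p = 0.122). The groups of cd74a overlapped, and those of IRF8 were separated only by the step between 16.2 CPM in 3-year replicate 5 and 16.1 CPM in 1-year replicate 1. The MHC class I gene mhc1uba, also named after its values were seen, had 9.19, 7.75, 2.5, 256 and 173 CPM at 3 years, against 4.77, 1.87, 9.7, 2.89 and 2.97 CPM at 1 year (edgeR adjusted p = 0.0581). Its high mean rested on 3-year replicates 4 and 5, and the other 3-year libraries were in the 1-year range.

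**Figure D3:**
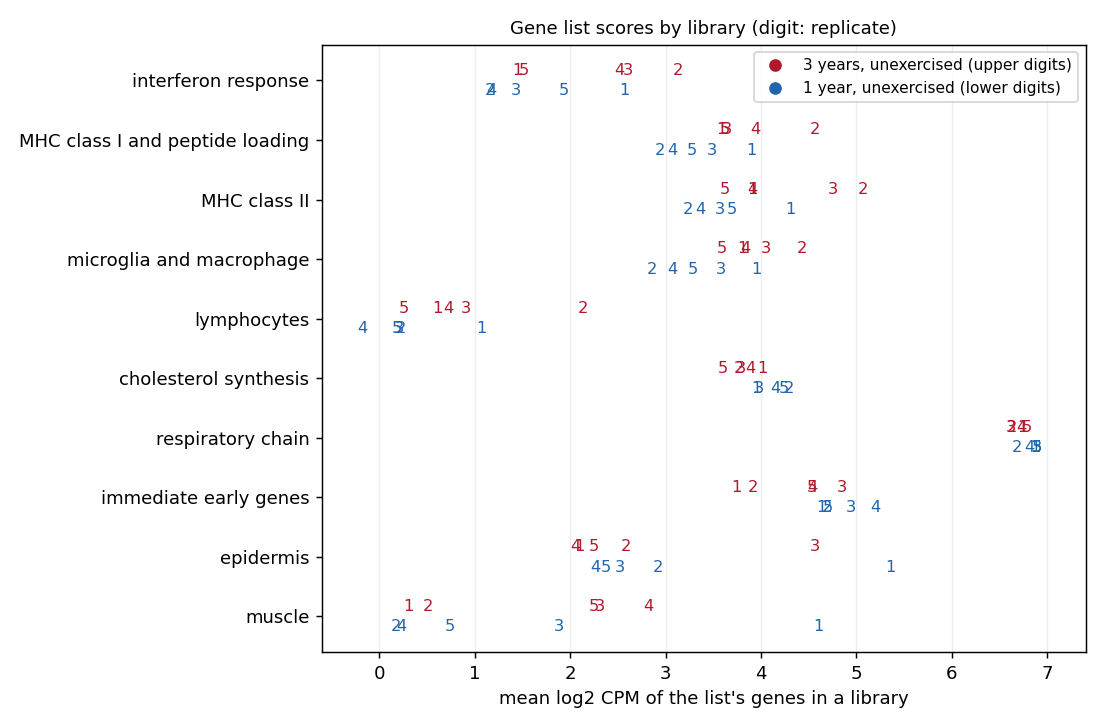
Mean log2 CPM of the genes of 10 lists in each unexercised library, with 3-year libraries in red above and 1-year libraries in blue below, each drawn as its replicate number. On the 5 immune lists 3-year replicate 2 is the highest library and 1-year replicate 1 the highest of its age, and the ages overlap. Epidermis separates 3-year replicate 3 (4.57) and 1-year replicate 1 (5.36) from the rest.

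Of the oligodendrocyte lineage list, 0 of 21 genes were called (3 higher and 1 lower at unadjusted p below 0.05, 2 higher by DESeq2). The list had 13 positive and 8 negative genes and a median of 0.10. Its transcription factors SOX10 and OLIG2, named after their values were seen, had log2 fold changes of 0.68 and 0.76 (edgeR adjusted p = 0.0726 and 0.0722). SOX10 had 68.5, 56.7, 60.3, 67.4 and 56.8 CPM at 3 years, against 48.9, 30.7, 46.7, 38.7 and 28.9 CPM at 1 year, without overlap. The groups of OLIG2 overlapped, at 73.8 to 122 CPM at 3 years and 48 to 77.3 CPM at 1 year. The myelin gene mbpa was not called, at 9920 ± 3440 CPM at 3 years and 11500 ± 2890 CPM at 1 year (SD, n = 5 each). GFAP, the filament gene of radial glia, averaged 107 ± 12.9 CPM at 3 years and 77.9 ± 8.03 CPM at 1 year and was not called (edgeR adjusted p = 0.334). Its list of 37 radial glia and astroglia genes did not share that direction, with 17 positive and 20 negative genes and a median of -0.02. On that list 0 genes were called (6 higher and 2 lower at unadjusted p below 0.05, 1 higher by DESeq2). For both lists the background over all genes tested was 0.222% called higher, 0.364% called lower and 49.5% positive. At unadjusted p below 0.05, 1540 of 21148 genes were higher and 1443 lower.

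Genes often followed in ageing tissue were not called in unexercised fish. The cell cycle inhibitor cdkn1a averaged 1.51 ± 0.346 CPM at 3 years and 1.07 ± 0.368 CPM at 1 year (edgeR adjusted p = 0.378). SIRT1, LMNB1 and foxo3a had log2 fold changes between -0.08 and 0.04, with edgeR adjusted p of at least 0.567. The neurotrophin gene BDNF averaged 48.8 ± 13.4 CPM at 3 years and 68.1 ± 16 CPM at 1 year (edgeR adjusted p = 0.259). IGF1, a growth factor, averaged 6.64 ± 0.87 CPM at 3 years and 8.11 ± 0.514 CPM at 1 year (edgeR adjusted p = 0.32), although its groups did not overlap. None of 68 cell cycle and replication genes was called (0 higher and 2 lower at unadjusted p below 0.05, 0 by DESeq2). By comparison, 1540 of all 21148 genes tested were higher and 1443 lower at that unadjusted p. PCNA, mki67 and TOP2A had log2 fold changes of -0.17, 0.10 and -0.03. A p above the threshold does not show that these levels were equal.

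The exercised libraries gave a second comparison of the ages whose group means share no library with the first. Both comparisons were tested in one fit and share each gene's estimate of spread, so their calls are not independent. There 2252 genes were called (10.6%), 1432 higher (6.77%) and 820 lower (3.88%) at 3 years. Of the 124 genes called without exercise, 123 had the same sign with it (99.2%), against 71.5% of all genes tested, and 92 were also called (74.2%), which is 4.09% of the exercised calls. The exception in sign was MIA, with a log2 fold change of 1.07 without exercise and -0.20 with it, whose call was kept only when 3-year replicate 5 was the library dropped. Outside the clock lists, 74 of 98 genes were also called. Across the 124 genes Pearson's r between the 2 sets of log2 fold changes was 0.90, a description over genes that were chosen in one of the sets. The median absolute log2 fold change of these genes was 0.73 without exercise, where they were selected, and 0.54 with it.

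By group, ARG2, OAT, prodha and ALDH4A1 were all called with exercise, at log2 fold changes of -0.50, -0.77, -0.57 and -0.50. FDFT1 was too (-0.67), within 17 lower and 1 higher call among the 30 sterol genes, whose median was -0.54. Some lists without a call in unexercised fish had called members here: 17 lower of 67 respiratory chain genes, 15 higher of 33 interferon genes, 16 higher and 1 lower of 28 MHC class I genes, and 20 higher and 1 lower of 30 microglia and macrophage genes. Calls were also more frequent over all genes tested, at 6.77% higher and 3.88% lower with exercise, against 0.222% and 0.364% without it. SOX10 and OLIG2 were also called with exercise (log2 fold changes 0.58 and 0.76). Of the ageing genes SIRT1, LMNB1, foxo3a and BDNF were not called with exercise, but cdkn1a and IGF1 were. Their log2 fold changes with exercise were 0.94 and -0.48 (edgeR adjusted p = 0.0225 and 0.0253). In contrast CRYAB, DDB2 and HSF2 were not called with exercise (log2 fold changes 0.38, -0.26 and -0.31, edgeR adjusted p = 0.396, 0.131 and 0.119). No such contrast passed a test of its own. The age effects with and without exercise differed for 1 of 21148 genes (0.00473%), cyp27a1.1, a sterol hydroxylase family gene that is not among the 124 and whose call was kept in only 2 of the 20 fits without 1 library, and for 1004 genes at an unadjusted p below 0.05 (4.75%). Among the 124 genes the smallest adjusted p of this difference was 0.696.

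**Figure D4:**
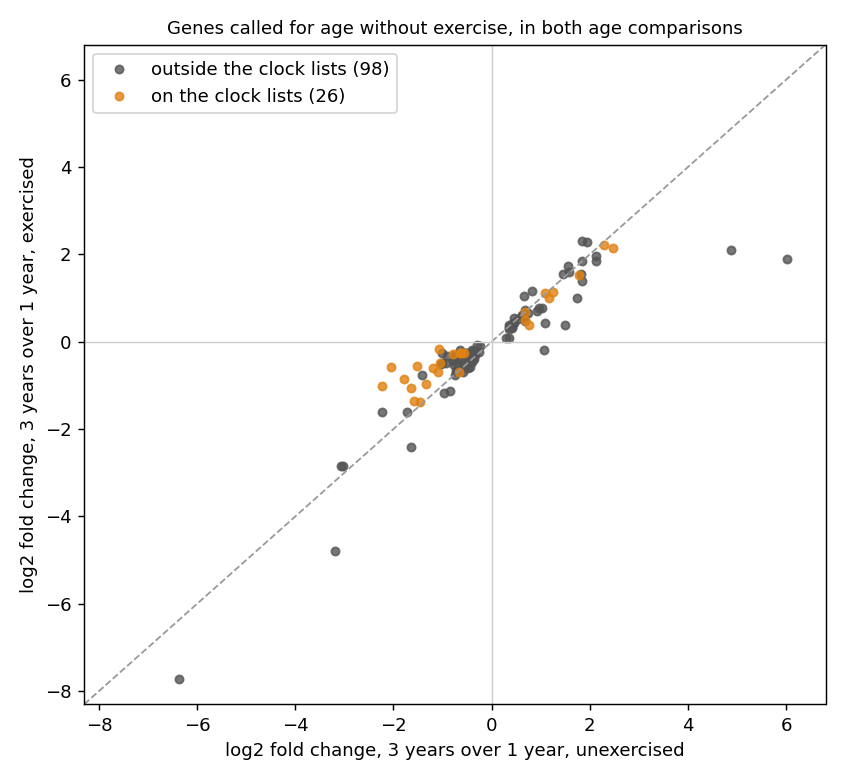
Log2 fold change of 3-year over 1-year brains for the 124 genes called without exercise, in unexercised fish (x axis) and exercised fish (y axis), which share no library. Orange points are the 26 genes on the clock lists and grey points the other 98. All but MIA have the same sign in both, and 96 of the 124 are larger without exercise, the comparison in which they were chosen.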

How the data were processed

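RNA of the brain was sequenced from libraries made with the TruSeq RNA Library Prep Kit v2, per the labels' protocols, a kit that does not mark strand, so reads of overlapping antisense genes are not separated. The build was GRCz10, and the tools were STAR 2.4.1d, featureCounts 1.4.6-p4 and bcl2fastq 1.8.4, per the submitters' processing notes. The authors deposited a table of raw read counts, with 32105 Ensembl identifiers, on which everything here rests. Their RPKM table was not used. The sources used here do not say how reads of similar gene copies were counted. Symbols came from a reference table that matched 26269 identifiers, many of them with human-style capitals; a symbol shared by several identifiers is given with its identifier. No sequences or coordinates are given.

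Genes were kept by filterByExpr (minimum count 10, minimum total 15) in edgeR 4.0.16 under R 4.3.3, scaled with TMM, and tested with the robust quasi-likelihood F-test on group means over all 20 libraries. P-values were adjusted over all genes with the Benjamini-Hochberg method, and 0.05 was the threshold. Standard errors are the absolute log2 fold change over the square root of F. CPM used TMM-scaled library sizes, and list scores are means of log2 CPM with a prior count of 1. The same steps were run on simulated counts with known changes, which checks the code and not these data. The simulated counts held no library that stood apart, unlike these data. DESeq2 1.42.0 and limma-voom (limma 3.58.1) were run as alternatives, with other scalings and filters, with only the 10 libraries compared, and with libraries left out. Replicate numbers only name libraries.

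Genes were named by a rule, which takes, among called genes with a symbol and a mean of at least 1 CPM at either age, the 15 largest changes in each direction, the 10 smallest p-values and, of each list, at most 4 called members, with a fixed set of glial, immune and ageing genes. All other genes given with values, among them the arginine, proline, mitochondrial and haem genes and many of the higher genes, were named after their values were seen. A few genes that this rule names are not reported here. There were 46 lists written at the start and 8 compiled later, after the calls were seen. On the 46 lists 675 symbols matched exactly and 1142 through a family symbol, of 1996, so a list gene may be another copy of the intended one. Members and lists were chosen with earlier results of these data known.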

Additional observations from a re-analysis of the deposited data

Results flagged for a closer look

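Libraries far from the other 4 of their group were looked for with Dixon's gap test (critical value 0.71 for 5 libraries) in 252 groups of values, of which 35 were marked. Chance alone marks about 1 in 20 groups of normally distributed values. Gene values were CPM without a log scale, some of them from very few reads, so the chance rate here is not known. The genes and lists are not independent, and several marks fell on the same library.

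In 3-year replicate 2 the immune genes b2m (773 CPM), cd74a (1630 CPM), cd74b (609 CPM), IRF8 (51.2 CPM), ccl34b.4 (103 CPM) and traf1 (4.14 CPM) stood above the other 3-year libraries, which held at most 321, 804, 318, 21, 22.2 and 1.45 CPM. The same library stood above its group in TOP2A (12.1 CPM, a gene of dividing cells), ENSDARG00000102467 (9.56 CPM) and ENSDARG00000104099 (4.4 CPM).

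Another library, 3-year replicate 1, stood high in col1a1a (58.8 CPM), mthfd2 (24.7 CPM), MIA (3.38 CPM) and cngk (0.564 CPM), and low in EFEMP2 (182 CPM), WDR91 (12.9 CPM) and the pituitary list score (0.27, against 1.00 to 1.26 in the other 3-year libraries).

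Replicate 3 at 3 years stood high in the epidermis list score (4.57) and in ENSDARG00000101930 (0.454 CPM), and low in IGF1 (5.14 CPM). Replicate 5 at 3 years was marked for SLC25A28 (66.6 CPM) and hsp90aa1.1 (7.72 CPM), and replicate 4 for the single read of si:ch211-195b13.9 (0.0359 CPM).

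At 1 year, replicate 1 stood high in the epidermis list score (5.36), the collagen genes col1a1a (152 CPM) and COL1A2 (166 CPM), the complement gene c1qa (9.97 CPM), hsp90aa1.1 (31.6 CPM), cldn7a (6.4 CPM) and ENSDARG00000104099 (0.136 CPM). The remaining marks were fbxl3l in replicate 3 (1.21 CPM), TGM1 in replicate 3 (0.862 CPM, low), ENSDARG00000101930 in replicate 3 (0.0638 CPM, low), GFAP in replicate 4 (91.8 CPM), and PER2 (270 CPM) and higd1a (131 CPM) in replicate 5.

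The age effects differed between unexercised and exercised fish for cyp27a1.1. Its log2 fold change (3 years over 1 year) was 0.19 without exercise (SE 0.08) and -0.54 with it, a difference of 0.73 (edgeR quasi-likelihood test of the difference, adjusted p = 0.0485). In unexercised fish it averaged 21.1 ± 0.835 CPM at 3 years and 18.5 ± 1.7 CPM at 1 year (SD, n = 5 each). No other gene was called. Of 20 fits that each dropped 1 library, 2 kept the call: the fit without replicate 3 of the 1-year unexercised fish and the fit without replicate 5 of the 3-year exercised fish. When replicate 2 of the 3-year unexercised fish was dropped, a single other gene was called.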

How the results depend on the processing

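No paired analysis was possible because replicate numbers only name libraries. The count of 124 genes for age without exercise was 533 with DESeq2 and 46 when only the 10 libraries compared were fitted, which also leaves fewer degrees of freedom. It was 74 without 1-year replicate 1 and 3-year replicate 3, 560 without replicate 1 of both ages, and 76 to 260 with 1 library left out. With other scalings, filters, non-robust dispersion or limma-voom it lay between 105 and 158. No gene among the 124 changed sign when a library was left out, and of 80 named called genes 36 were called under every alternative that tested them. The share of calls that were higher was 37.9%, 29.5% with limma-voom and 51.8% without replicate 1 of both ages. For age with exercise the count of 2252 was 3403 with DESeq2 and 899 to 2247 with 1 library left out, and the share higher, 63.6%, was 54.7% with DESeq2. The single gene called for the difference became 12 with DESeq2, 0 without a filter on low counts, 0 with non-robust dispersion, and 0 to 1 with 1 library left out (cyp27a1.1 itself in 2 of 20 such fits). The median of the muscle list turned from -1.20 to 1.07 without 1-year replicate 1, and that of the epidermis list from -0.48 to 0.66. The cause of these changes was not tested. Counts under about 10 per library limit what can be seen of rare transcripts.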

Other observations

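Further genes passed the test without belonging to a group above. Higher at 3 years were the transglutaminase gene TGM1 (ENSDARG00000101407; 5.79 ± 2.04 CPM at 3 years and 1.94 ± 0.623 CPM at 1 year, SD, n = 5 each; edgeR adjusted p = 0.0317) and pcyt1bb, a gene of phosphatidylcholine synthesis (5.8 ± 3.45 CPM at 3 years and 1.32 ± 0.419 CPM at 1 year, edgeR adjusted p = 0.0338). In pcyt1bb the libraries overlapped, since 3-year replicate 1 held 1.23 CPM. The LIM homeobox gene lhx8b averaged 7.07 ± 1.35 CPM at 3 years and 4.42 ± 0.606 CPM at 1 year (edgeR adjusted p = 0.0317), and the cullin adaptor gene KLHL24 (ENSDARG00000008275) 19.6 ± 2.02 CPM at 3 years and 12.8 ± 2.19 CPM at 1 year (edgeR adjusted p = 0.0256). Single libraries decided these 4 calls. TGM1 was lost without any 1 of 1-year replicates 2 to 5 and 3-year replicates 2 to 4 (adjusted p up to 0.0938). The pcyt1bb call was lost without 1-year replicate 1, 3, 4 or 5 or 3-year replicate 2, 3 or 5 (up to 0.103). Without 1-year replicate 2, 4 or 5 or 3-year replicate 2, 3 or 4 lhx8b was lost (up to 0.1), and without 1-year replicate 2 or 5 or 3-year replicate 3 or 4 KLHL24 was (up to 0.0817). YPEL3 was called in every fit with a library left out, though not with only the 10 libraries compared (adjusted p = 0.0858), at 74.2 ± 4.03 CPM at 3 years and 58.2 ± 4.13 CPM at 1 year (edgeR adjusted p = 0.00563).

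Lower at 3 years, and called in every fit with a library left out, were 3 less studied genes. The WD repeat gene wdr76 averaged 1.34 ± 0.189 CPM at 3 years and 3.57 ± 0.875 CPM at 1 year (edgeR adjusted p = 0.00602). ZNF395 (ENSDARG00000024195), a zinc finger gene, averaged 23.7 ± 2.68 CPM at 3 years and 44.4 ± 6.15 CPM at 1 year (edgeR adjusted p = 0.000554). The uncharacterised si:dkey-18a10.3 averaged 0.554 ± 0.184 CPM at 3 years and 4.67 ± 1.41 CPM at 1 year (edgeR adjusted p = 4.95e-05), and with exercise 0.524 CPM at 3 years and 3.82 CPM at 1 year.

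The chemokine gene ccl34b.4, named after its values were seen, was above its 1-year range in every 3-year library, at 10.2, 103, 11.8, 22.2 and 10.1 CPM at 3 years, against 2.55, 2.92, 4.72, 1.36 and 4.55 CPM at 1 year, and was not called (log2 fold change 3.28, SE 0.76, edgeR adjusted p = 0.0581). With exercise it was called (log2 fold change 4.24, edgeR adjusted p = 0.00615).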
